A study of Mus musculus with 10 samples.

Results

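The genes examined here encode the matrix metalloproteinases (Mmp), the ADAMTS proteases (a disintegrin and metalloproteinase with thrombospondin motifs) and the tissue inhibitors of metalloproteinases (Timp). Members were chosen by name alone: every listed region whose assigned gene symbol was Mmp, Adamts or Timp followed by digits and at most 1 lower-case letter. This gave 970 of the 340994 regions in the 5 tables used, assigned to 45 genes. Of the 46 mouse genes whose names match, only Timp4 had no region. The 23 Mmp genes held 337 regions, the 19 Adamts genes 579 and Timp1, Timp2 and Timp3 together 54.

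The regions came from CUT&Tag-seq of primary murine cardiac fibroblasts, a method that tags and sequences the DNA next to an antibody's target by tethering a transposase to that antibody. The antibodies were against histone H3 lactylated at lysine 9 (H3K9lc) and the transcription factors c-JUN, SMAD3 and NFATC2. Libraries labelled TGF were from cells given TGF-β, a cytokine that activates fibroblasts. Libraries labelled siHK1 were from cells given an siRNA against hexokinase 1 (HK1), a glycolytic enzyme, and then TGF-β. The control library (NC) had no treatment in its labels, and its antibody was taken as H3K9lc from the name of the table it belongs to. The study's methods give its mouse strains a C57BL/6 J background, and the age and number of animals behind each library are not given in the sources used here. The question behind the first 4 tables is what HK1 knockdown does to the lactylated mark and to binding of the factors under TGF-β, and behind the fifth what TGF-β does to the mark.

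There was 1 library for each condition and antibody, so no difference below was tested between conditions and every statement compares libraries. Reads were scaled to equal totals over all regions of a table, and ratios are given as log2 of siHK1 over TGF (or TGF over NC) with 0.5 reads added. A region is called lower or higher when that ratio passed 2-fold and its exact 95% counting interval left out equality. Where a library had 0 reads, the fold printed is a bound against a floor of 3 reads, which did not enter the call. Intervals cover counting error only, and PCR copies are not independent molecules. A gain or loss shared by all regions of a library cannot be seen after this scaling. The H3K9lc libraries held 2490853 reads in listed regions in TGF and 1419023 in siHK1. JUN had 4215447 in TGF and 2271336 in siHK1, and SMAD3 had 563562 in TGF and 399897 in siHK1. NFATC2 had 575706 in TGF and 354599 in siHK1, while in the remaining table NC held 115572 and TGF 2313288. The member regions of JUN were the most deeply read, with a median of 40 reads in TGF and 20 in siHK1. The medians were 16 and 7 at H3K9lc members, 3 and 3 at SMAD3 members and 3 and 2 at NFATC2 members. The cell label was compared with marker promoters. JUN regions lay at promoters of 12 of 12 fibroblast marker genes, 2 of 6 cardiomyocyte, 4 of 5 endothelial and 3 of 5 macrophage and leukocyte marker genes. Their summed JUN reads in TGF were 1805, 132, 158 and 322, and in siHK1 978, 56, 90 and 189. H3K9lc had a region at the promoter of 1 of the 12 fibroblast genes, with 15 and 2 reads, of 2 cardiomyocyte genes, with 8 and 10, and of 1 endothelial gene, with 64 and 28. It had 0 regions at macrophage and leukocyte promoters. SMAD3 regions lay at 7 of the 12 fibroblast promoters, with 33 and 59 reads in all, and at 3 of 6 cardiomyocyte promoters, with 158 and 86. They lay at 2 of 5 endothelial promoters, with 6 and 19 reads, and 2 of 5 macrophage and leukocyte promoters, with 6 and 8. NFATC2 regions lay at 9 of 12 fibroblast promoters with 58 and 51 reads, and at 4 of 6 cardiomyocyte promoters with 42 and 24. They lay at 1 of 5 endothelial promoters, with 9 and 4 reads, and 1 of 5 macrophage and leukocyte promoters, with 4 and 0. Chromatin reads are not expression, and the part of other cell types in the results was not tested.

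Matrix metalloproteinases cut collagens, gelatins, proteoglycans and other proteins of the extracellular matrix, and most are made as inactive proenzymes. ADAMTS proteases trim procollagens, cleave large proteoglycans such as versican and aggrecan, or act on microfibrils. TIMPs bind the active site of these enzymes and block it, and TIMP3 also inhibits several ADAMTS proteases. In the heart, fibroblasts are a main source of these proteins, and the balance of proteases and inhibitors sets how much matrix is kept. The promoters of several MMP genes are textbook targets of AP-1, the dimer of JUN and FOS family proteins, which binds the 7 bases TGAGTCA and their complement TGACTCA.

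Because JUN is a subunit of AP-1, the promoters of these genes were searched first for those letters. RefSeq promoter windows (GRCm38.p6, from 250 bases before to 50 after the start site) could be matched for 32 of the 46 genes, as 35 windows. The AP-1 letters were in 7 of the 35 windows (20%) and in 5.20% of all 32851 promoter windows of the table. All 7 belong to Mmp genes that lie together on chromosome 9, where the windows of Mmp8, Mmp20 and Mmp27 did not hold the letters. The 7 are printed below from 5′ to 3′ in the direction of the gene, with the AP-1 letters in capitals, so that the site and its distance from the start can be compared.
Mmp13 promoter, chr9:7272449-7272513, plus strand: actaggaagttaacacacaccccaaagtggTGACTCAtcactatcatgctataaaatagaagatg
Mmp12 promoter, chr9:7347300-7347366, plus strand: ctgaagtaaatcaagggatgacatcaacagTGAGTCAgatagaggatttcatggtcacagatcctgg
Mmp1b promoter, chr9:7388083-7388149, minus strand: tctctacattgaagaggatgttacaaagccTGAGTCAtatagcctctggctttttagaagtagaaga
Mmp3 promoter, chr9:7445746-7445812, plus strand: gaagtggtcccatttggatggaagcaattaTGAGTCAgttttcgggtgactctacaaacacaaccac
Mmp1a promoter, chr9:7464038-7464104, plus strand: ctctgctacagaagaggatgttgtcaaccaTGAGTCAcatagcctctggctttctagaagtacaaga
Mmp10 promoter, chr9:7502249-7502315, plus strand: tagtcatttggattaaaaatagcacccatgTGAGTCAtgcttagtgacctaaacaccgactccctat
Mmp7 promoter, chr9:7691997-7692063, plus strand: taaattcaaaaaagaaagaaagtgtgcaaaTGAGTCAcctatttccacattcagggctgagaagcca

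The first AP-1 base lay 35 bases before the start site in Mmp13, 44 in Mmp12, 46 in Mmp3, 63 in Mmp10 and Mmp7, 73 in Mmp1a and 93 in Mmp1b. Mmp13 alone carried TGACTCA in the direction of the gene, and the other 6 carried TGAGTCA. The windows of the neighbouring collagenase genes Mmp1a and Mmp1b held the same base at 50 of 67 places. JUN regions overlapped the promoter windows of 3 of these 7 genes, Mmp1b, Mmp3 and Mmp10, and of 8 of the other 25 genes. H3K9lc and NFATC2 regions overlapped none of the 32 promoters, and SMAD3 regions overlapped 4, none of them with the AP-1 letters. Over all 27025 genes of the promoter table the shares overlapped were 30.2% for JUN, 11.3% for SMAD3, 9.50% for NFATC2 and 4.01% for H3K9lc, against 34.4%, 12.5%, 0% and 0% of these 32.

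The next windows are the central 200 bases of strongly read JUN regions of Adamts6, Timp2 and Mmp14, with 307, 263 and 387 reads in TGF and 183, 143 and 237 in siHK1. They are shown on GRCm38 with the AP-1 letters in capitals, as sites where the log2 ratio was near 0 (0.15, 0.02 and 0.19).
Adamts6, chr13:104521583-104521782, plus strand: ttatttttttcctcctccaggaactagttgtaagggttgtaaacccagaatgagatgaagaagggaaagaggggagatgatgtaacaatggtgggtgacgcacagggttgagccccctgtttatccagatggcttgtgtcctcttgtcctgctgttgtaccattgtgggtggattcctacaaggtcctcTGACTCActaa
Timp2, chr11:118365280-118365479, plus strand: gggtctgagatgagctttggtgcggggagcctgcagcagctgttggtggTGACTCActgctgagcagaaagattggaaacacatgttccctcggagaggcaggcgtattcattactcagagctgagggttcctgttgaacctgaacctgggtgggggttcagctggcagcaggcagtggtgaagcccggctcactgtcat
Mmp14, chr14:54435197-54435396, plus strand: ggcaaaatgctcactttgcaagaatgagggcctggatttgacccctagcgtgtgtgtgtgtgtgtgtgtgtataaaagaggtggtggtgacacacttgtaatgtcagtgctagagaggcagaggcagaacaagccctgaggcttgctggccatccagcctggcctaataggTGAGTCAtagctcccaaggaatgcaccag

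The last set holds JUN regions with fewer scaled reads in siHK1, in an intron of Adamts16, upstream of Adamts3 and in an intron of Syn1 assigned to Timp1. The AP-1 letters, in capitals, are in the Adamts16 window and not in the other 2, which says only that those 7 letters are absent there.
Adamts16, chr13:70760300-70760499, plus strand: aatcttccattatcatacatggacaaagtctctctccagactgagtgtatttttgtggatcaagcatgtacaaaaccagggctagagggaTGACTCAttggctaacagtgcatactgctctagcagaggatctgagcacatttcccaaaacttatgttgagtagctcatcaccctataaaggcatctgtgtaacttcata
Timp1, chrX:20875962-20876161, plus strand: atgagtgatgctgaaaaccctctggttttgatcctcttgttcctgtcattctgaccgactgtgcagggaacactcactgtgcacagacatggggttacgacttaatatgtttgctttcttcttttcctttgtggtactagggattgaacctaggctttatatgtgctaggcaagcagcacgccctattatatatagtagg
Adamts3, chr5:89980239-89980438, plus strand: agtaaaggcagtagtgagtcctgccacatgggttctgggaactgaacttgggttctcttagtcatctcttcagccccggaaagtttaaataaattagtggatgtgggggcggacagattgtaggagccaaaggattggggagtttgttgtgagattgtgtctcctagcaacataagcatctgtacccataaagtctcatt

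Regions of these genes were spread unevenly over genes and antibodies. In the tables that compare siHK1 with TGF there were 177 H3K9lc regions at 33 genes, 270 JUN regions at 41 genes, 171 SMAD3 regions at 38 genes and 198 NFATC2 regions at 40 genes. Mmp16, which encodes a membrane-bound metalloproteinase, had 43 H3K9lc regions, 21 SMAD3 regions and 25 NFATC2 regions but 7 JUN regions. The order was different for JUN, whose regions were most often assigned to the versican-cleaving proteases Adamts9 (26 regions) and Adamts5 (25 regions) and the procollagen N-propeptidase Adamts2 (20 regions). Their median distances from the assigned start site were 151280, 225200 and 56873 bp, and that of the H3K9lc regions of Mmp16 was 424240 bp. No H3K9lc region was assigned in that table to Timp1, Timp2, Mmp14, Mmp3, Mmp11, Mmp23, Mmp24, Mmp27, Mmp28, Adamts4, Adamts8 or Adamts16. JUN had regions at each of these 12 genes, which are 29.3% of its 41, where 43.6% of all genes with a JUN region had no H3K9lc region.

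**Figure D1:**
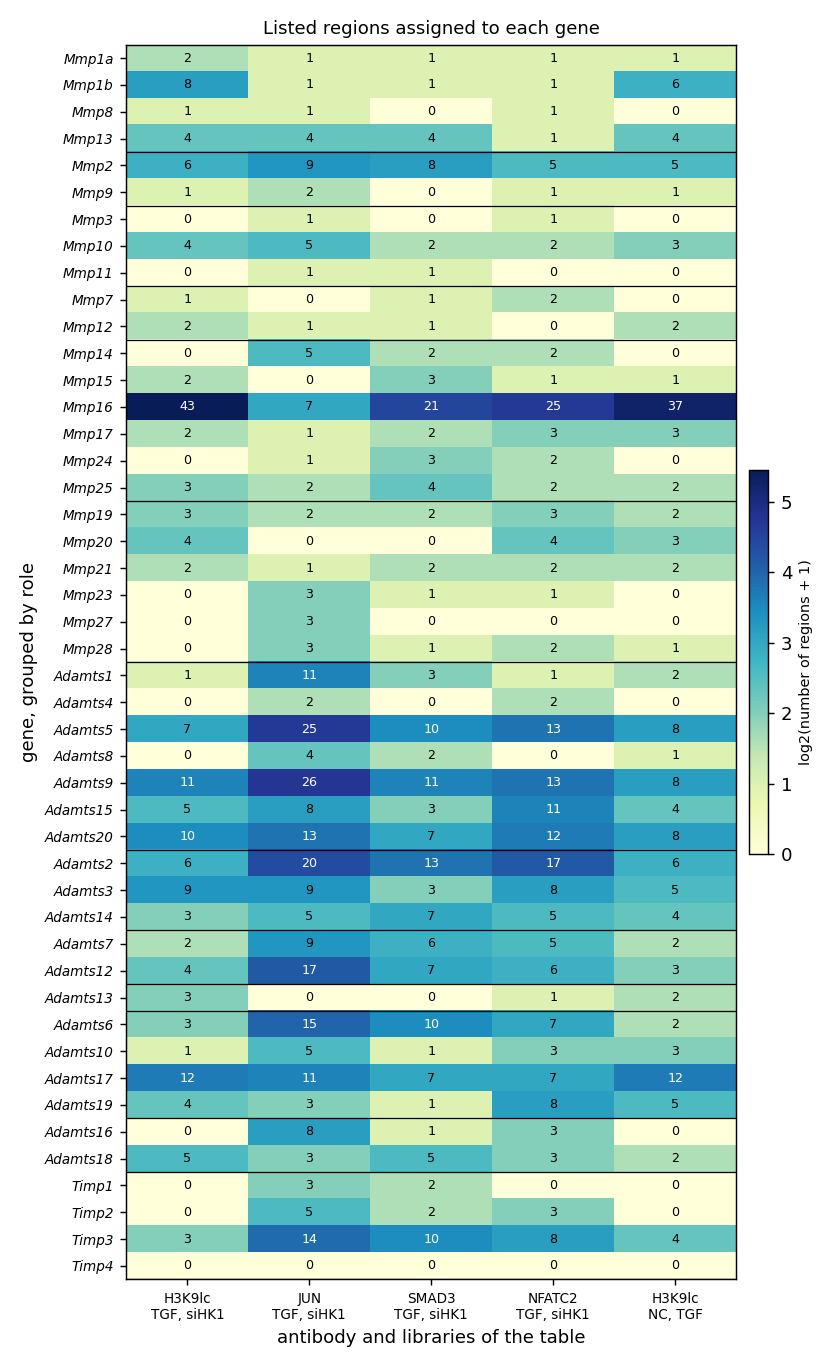
Number of listed regions assigned to each of the 46 genes (rows, grouped by role with lines between groups) in each of the 5 tables (columns, by antibody and the libraries compared), with colour as log2(number + 1). Mmp16 stands out for H3K9lc with 43 regions, Adamts9, Adamts5 and Adamts2 for JUN with 26, 25 and 20, and the Timp4 row is 0 throughout.

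Many of these regions lay far from the gene they are named for. Of the JUN members, 26.3% were over 100 kb from the assigned start site, against 12.5% of all JUN regions, and the median distance was 35112 bp against 14503 bp. For H3K9lc the shares were 41.8% of members and 34.8% of all regions. Intronic regions were often within another gene, 34 of 122 for JUN and 22 of 60 for H3K9lc. Those named for Timp1 lay in Syn1, and many of those named for Timp3 in Syn3, since the 2 Timp genes sit inside introns of these synapsin genes. Promoter regions, taken by the authors' annotation as within 3 kb of a start site, made up 47 of 270 JUN members at 28 genes, 21 SMAD3 members at 20 genes, 18 NFATC2 members at 16 genes and 9 H3K9lc members at 8 genes. The promoter shares of members and of all regions were 17.4% against 25.6% for JUN, 12.3% against 18.9% for SMAD3 and 9.09% against 17.0% for NFATC2. For H3K9lc they were 5.08% against 6.78%, which is near the background and rests on 9 regions. These differences were not tested.

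The JUN member of highest scaled level lay 10090 bp upstream of Mmp19, which cuts basement membrane proteins, with 526 reads in TGF and 234 in siHK1 (log2 ratio -0.27, interval -0.50 to -0.05), so its interval left out equality and it did not pass 2-fold. Among regions annotated as promoters JUN was highest at a protease activator, an inhibitor and a hyalectanase. Mmp14 encodes MT1-MMP, which sits on the cell surface and activates proMMP2. Its region chr14:54434644-54435949, 2208 bp past the start site of the transcript it is assigned to and 3046 bp past the RefSeq start site, had 387 reads in TGF and 237 in siHK1 (log2 ratio 0.19, interval -0.05 to 0.42). The promoter of Timp1, an inhibitor made by activated fibroblasts, had 319 and 167 reads (-0.04, interval -0.32 to 0.23). Adamts1, which cleaves versican, had 271 and 149 reads (0.03, interval -0.27 to 0.32) at chr16:85800720-85801682, which the annotation puts at the start of one of its transcripts. The region over its RefSeq promoter window, chr16:85803139-85803371, had 46 and 22 reads (-0.16). Per 1000000 reads in listed regions these were 91.8 and 104 at Mmp14, 75.7 and 73.5 at Timp1, and 64.3 and 65.6 at Adamts1. For these 3 regions the interval took in equality and left out a 2-fold change in either direction.

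Of the 270 JUN members, 18 were lower in siHK1 (6.67%) and 6 were higher (2.22%), where all JUN regions gave 5.56% lower and 4.0% higher. The lower share lay close to the background, and the higher share, from 6 regions, lay below it. Lower calls made up 75% of member calls and 58.2% of all JUN calls, and the difference was not tested. The median log2 ratio was -0.09 for members and -0.04 for all regions. The 18 lower regions belonged to 12 genes. At promoters 6 of 47 member regions were lower (12.8%) and 0 higher, against 4.24% and 3.37% of all JUN promoter regions. The lower promoter regions were those of Adamts4 (2 regions), Adamts6, Adamts14, Mmp23 and Timp3.

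**Figure D2:**
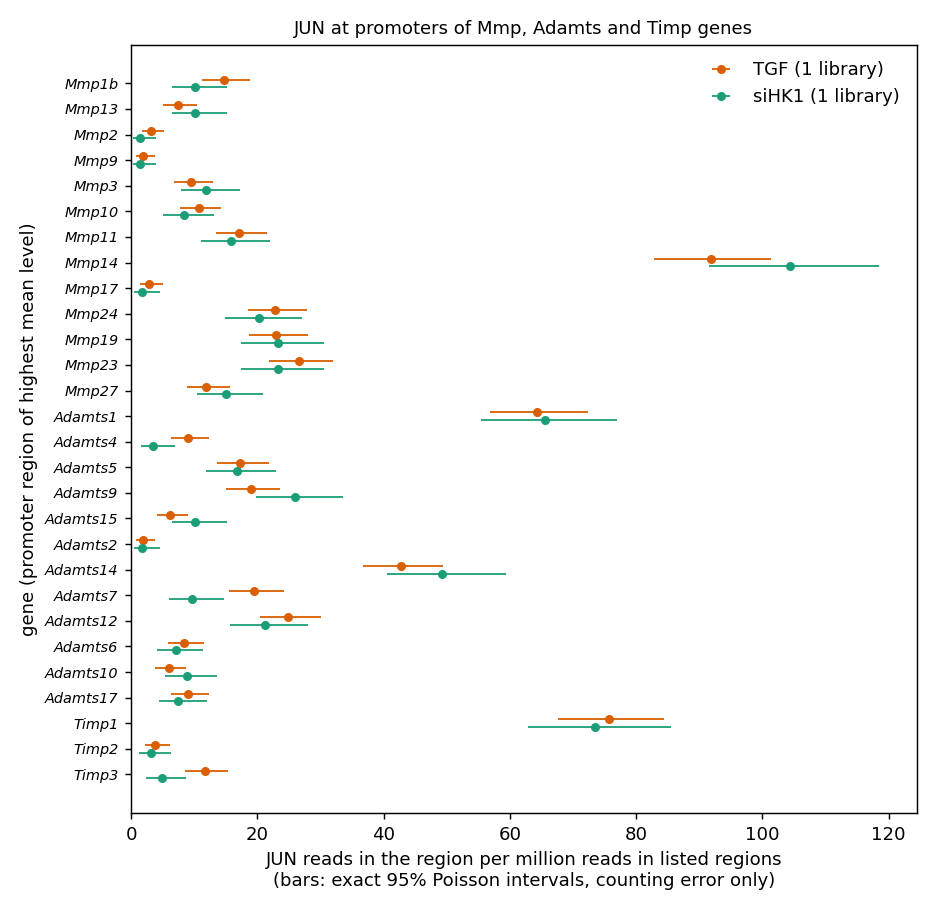
JUN reads per 1000000 reads in listed regions (x axis) at the promoter region of highest mean level for each of the 28 genes with one (y axis, by role). Points are the TGF library (orange) and the siHK1 library (green), with exact 95% Poisson intervals as bars. Mmp14, Timp1 and Adamts1 lie far to the right with overlapping bars, and Adamts4 and Timp3 lie to the left with siHK1 below TGF.

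The inhibitors had 22 JUN regions, of which 3 were lower (13.6%) and 0 higher, against 5.56% and 4.0% of all JUN regions. Among them, Timp3 had regions on both sides of its TGF level, with a median log2 ratio of 0.14 over 14 regions. Timp3 encodes the inhibitor that is bound to the matrix. Its promoter region chr10:86299865-86300541 had 49 reads in TGF and 11 in siHK1 (log2 ratio -1.21, interval -2.36 to -0.30), and a region 3966 bp upstream had 46 and 12 (-1.0). Its strongest region, in a Timp3 intron 35909 bp past the start site, had 224 and 194 reads (0.69, interval 0.40 to 0.97). So the promoter was called lower while the 3 Timp3 regions of highest ratio, all intronic, had scaled reads above TGF. The others of these had 62 and 52 reads (0.64) and 33 and 33 reads (0.89), and none of the 3 passed 2-fold. The other 9 JUN regions of Timp3 ranged from -0.98 to 0.38 and none was called.

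Timp1 and Timp2 were mostly level. Timp2 encodes the inhibitor that also takes part in activating proMMP2. Its 5 JUN regions had 16 and 7, 55 and 34, 181 and 100, 263 and 143, and 64 and 18 reads from the promoter outwards, and none was called. The highest, chr11:118365035-118365723, lies 9295 bp upstream and is one of the AP-1 windows printed above (log2 ratio 0.02). Timp1 had 96 and 65 reads in a second promoter region (0.33). Its remaining region, chrX:20875971-20876151 in the Syn1 intron, had 13 reads in TGF and 0 in siHK1, at least 2.33-fold lower against a floor of 3 reads.

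The matrix metalloproteinases had 54 JUN regions, of which 3 were lower (5.56%) and 2 higher (3.70%), near the 5.56% and 4.0% of all JUN regions. The lower regions were at Mmp23, Mmp21 and Mmp12, the macrophage elastase. The Mmp23 promoter had a region with a ratio above 0 and others below it. Its region chr4:155653013-155653822 had 77 and 15 reads (-1.43, interval -2.37 to -0.66), a second had 39 and 41 (0.96, interval 0.30 to 1.63) and the last had 112 and 53 (-0.18). None of the 7 collagenase regions or the 11 gelatinase regions was called, which at those shares of all JUN regions is not a result about these genes. At the collagenase Mmp13 the region 10396 bp upstream had 173 and 101 reads (0.12), and at the gelatinase Mmp2 an intronic region had 136 and 75 (0.04). Mmp9, the other gelatinase, had 8 and 3 reads at the better read of its promoter regions, whose interval of -3.07 to 1.54 took in a 2-fold difference in either direction. Of the AP-1 promoters printed above, Mmp1b had 62 and 23 reads (-0.52), Mmp3 40 and 27 (0.33) and Mmp10 45 and 19 (-0.33), and the interval of each took in equality. The higher calls were Mmp10, a region in the 3′ UTR with 2 and 9 reads (2.82, interval 0.79 to 6.31), and Mmp16, a region 619523 bp upstream with 28 and 34 (1.17).

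The ADAMTS genes had 194 JUN regions, with 12 lower (6.19%) and 4 higher (2.06%), against 5.56% and 4.0% of all JUN regions. Adamts4, an aggrecan- and versican-cleaving protease, had only 2 JUN regions, both at promoters and both lower, with 38 and 8 reads (-1.29, interval -2.67 to -0.23) and 25 and 4 reads (-1.61, interval -3.73 to -0.22). Its relative Adamts5 had 25 regions with none lower and 2 higher, with 29 and 38 reads (1.28) and 16 and 22 reads (1.34). The first of these lay 348161 bp upstream, within another gene. Adamts9 had 26 regions and no call in either direction, and Adamts6 had 15 with 3 lower and 0 higher. Among the procollagen N-propeptidases, which remove the amino-terminal propeptide of fibrillar procollagens, 4 of 34 regions were lower (11.8%) and 1 was higher (2.94%). The strongest Adamts2 region, in its own intron, had 405 and 153 reads (-0.51, interval -0.79 to -0.24), which left out equality without passing 2-fold. Adamts3 had a lower region 96639 bp upstream (53 and 12 reads, -1.21) and a higher one in its intron (32 and 40 reads, 1.21). Adamts14 had a weak lower region at -368 bp (18 and 2 reads) beside a strong promoter region with 180 and 112 (0.21). Adamts16 had 8 JUN regions, and its lower ones had 85 and 20 reads (-1.17) and 50 and 10 reads (-1.37). The region with 85 reads is the Adamts16 window printed above, with a peak in both libraries.

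No called JUN member was among the regions of highest level, where few of all JUN regions were called either. When all JUN regions were ranked by mean scaled level and cut into 5 equal groups, the top group held 58 members and none was called, against 164 lower and 55 higher of 14598 regions. At so low a share of all regions, 0 of 58 is not a result about these genes. The third group held 50 members with 7 lower and 1 higher, against 1035 and 690 of 14598. The fourth, next below the top, held 72 members with 2 lower and 3 of the 6 higher, against 488 and 284. A peak was marked in both libraries at 136 of the 270 member regions (50.4%), against 49.7% of all JUN regions. Of the 24 called regions, 20 were marked as a peak in 1 library only (83.3%), against 85.0% of all called JUN regions.

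**Figure D3:**
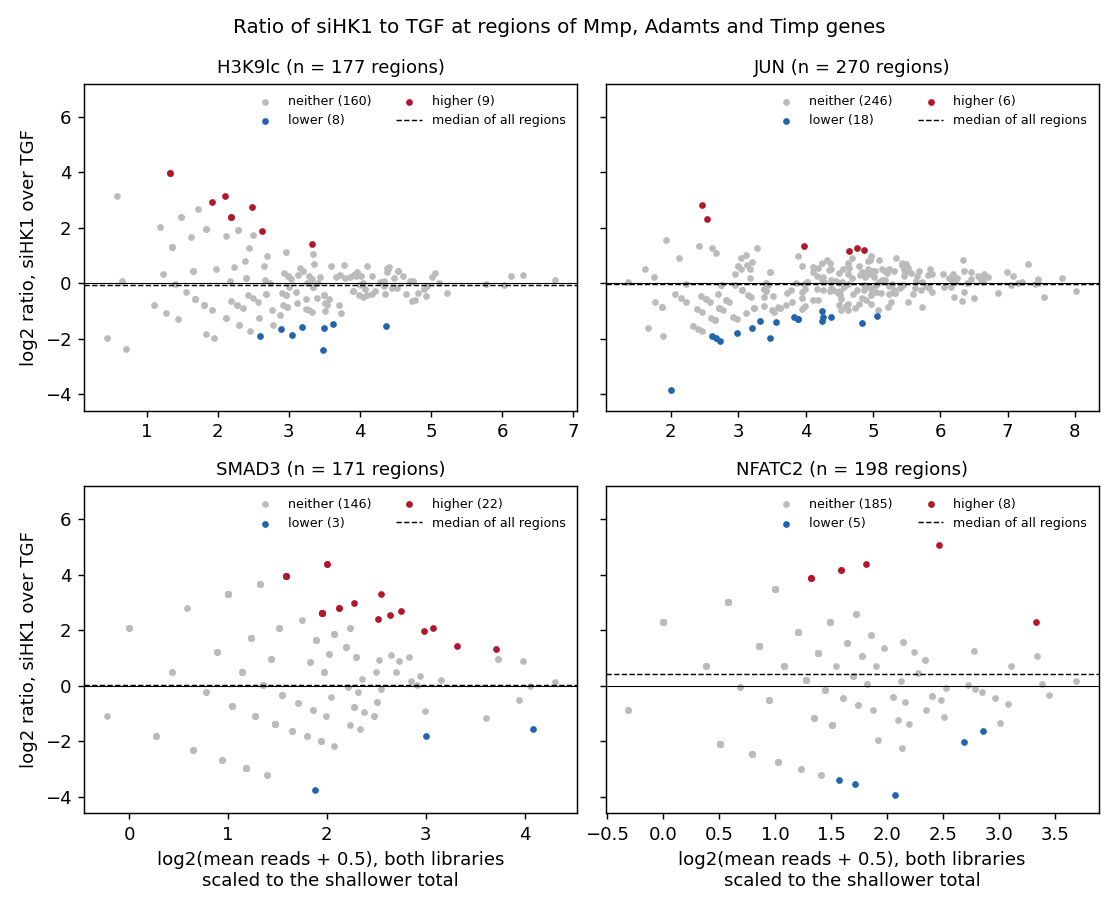
Log2 ratio of siHK1 over TGF (y axis) against log2 of the mean scaled reads plus 0.5 (x axis) for the member regions of each antibody. Each point is a region, blue where called lower, red where called higher and grey otherwise, and the dashed line is the median of all regions of that table. JUN narrows to a band about 0 at high levels, whereas SMAD3 and NFATC2 regions have few reads and more of their calls are higher than lower.

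In the central windows of JUN regions the AP-1 letters did not mark the members out, or the regions that were lower. They were in the central 200 bases of 64 of 270 JUN members (23.7%) and of 24.1% of all JUN regions, searched as TGAGTCA and TGACTCA, which are complements of each other. In the same windows of the other siHK1 tables they were in 3.39% of H3K9lc, 6.43% of SMAD3 and 4.55% of NFATC2 members. The shares of all regions there were 3.42%, 4.33% and 4.15%, and the SMAD3 share rests on 11 members. Of the 64 JUN members with the letters 2 were lower and 0 higher, with a median level of 51.3 scaled reads per kb. Of the 206 without them 16 were lower and 6 higher, with a median level of 35.9 per kb. Of all JUN regions 5.12% with the letters and 5.70% without them were lower. These groups differ in level as well as in letters, and the part of each was not tested.

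For SMAD3, the factor phosphorylated by the TGF-β receptor, the calls went mostly upwards. Of 171 members 3 were lower (1.75%) and 22 higher (12.9%), where all SMAD3 regions gave 4.59% lower and 7.44% higher. With the authors' deposited normalised values instead of equal totals the counts were 5 lower (2.92%) and 9 higher (5.26%), so the lower share of calls went from 12% to 35.7%. All SMAD3 regions then gave 5.49% lower and 3.86% higher, so the higher share of members lay closer to the background than with equal totals. Read numbers were small, since 12 of 171 regions had 20 reads or more over both libraries. The median log2 ratio was 0.49, or 0.25 with regions at 0 reads set to the floor, against 0.01 over all regions. All 25 called regions had a peak in 1 library only, as did 166 of the 171 members and 96.6% of all called SMAD3 regions.

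The higher SMAD3 regions belonged to 16 genes. The hyalectanases had 6 higher regions of 36 (16.7%), the procollagen N-propeptidases 5 of 23 (21.7%) and the gelatinases 2 of 8 (25%). The microfibril ADAMTS had 3 of 19 (15.8%), the TIMPs 2 of 14 (14.3%) and Adamts7 with Adamts12 1 of 13 (7.69%). The membrane-type metalloproteinases had 1 of 35 (2.86%) and the collagenases 0 of 6, against 7.44% of all SMAD3 regions. The groups are small, and their shares were not redone with the deposited values, which gave 9 higher members in all. Adamts1 had 1 and 10 reads just upstream of its RefSeq start site (3.30, interval 1.0 to 9.26). Adamts2 had 0 and 7 reads in an intron, at least 3.29-fold higher, and Adamts16 had the same numbers in its intron. Mmp2 had 2 and 10 reads (2.57, interval 0.59 to 6.05) and 2 and 9 reads (2.42, interval 0.39 to 5.91) in introns, and the first of these overlaps its strongest JUN region. Timp1 had 2 and 11 reads (2.70, interval 0.76 to 6.17) in Syn1 and Adamts14 had 4 and 13 (2.08) upstream. At promoters 3 of 21 members were higher (14.3%), close to the 14.7% of all SMAD3 promoter regions, so the difference from the background lay in the other regions, with 19 of 150 (12.7%) against 5.74%. The lower regions were Adamts17 (9 and 0 reads, at least 2.13-fold lower), Mmp10 (17 and 3 reads, -1.83, interval -4.42 to -0.22) and Adamts20 (35 and 8 reads, -1.57).

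The letters CAGACA or CAGACC, which hold the SMAD core, were searched on both strands and were in 35.7% of SMAD3 members and 28% of all SMAD3 regions. Of the 61 members with them 13 were higher (21.3%), and of the 110 without them 9 were (8.18%). Over all SMAD3 regions the shares were 8.73% with the letters and 6.94% without them. The members with them had a median level of 10.4 scaled reads per kb and the others 8.97, and the part of level was not tested. The central window of the lower Adamts20 region held neither, nor the AP-1 letters, and is shown because it is a run of gt repeats, with g or t at 81.0% of its 200 bases.
Adamts20, chr15:94445688-94445887, plus strand: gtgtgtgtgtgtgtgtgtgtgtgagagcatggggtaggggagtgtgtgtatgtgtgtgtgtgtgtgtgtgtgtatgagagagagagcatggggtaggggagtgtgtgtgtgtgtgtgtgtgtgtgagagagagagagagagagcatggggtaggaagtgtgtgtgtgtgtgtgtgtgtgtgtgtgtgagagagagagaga

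NFATC2, a calcium-dependent factor that moves to the nucleus when calcineurin dephosphorylates it, was lower at 5 of 198 members (2.53%) and higher at 8 (4.04%). All NFATC2 regions gave 2.06% and 4.79%, so both shares were near the background. The deposited values gave 6 lower (3.03%) and 5 higher (2.53%), against 2.28% and 2.46% of all regions, which moved the lower share of calls from 38.5% to 54.5%. Timp3 held the region of most reads among the higher calls, 5 and 16 in an exon of Syn3 (2.28, interval 0.86 to 4.18), and an intronic region with 0 and 10, at least 5.41-fold higher. The letters AGGAAA or TGGAAA, which hold the NFAT core, on either strand were in the central windows of 35.9% of NFATC2 members and 32.8% of all NFATC2 regions. Mmp16 had 3 higher regions, with 0 reads in TGF and 4, 5 and 6 in siHK1, and 1 lower with 9 and 0. The call with 4 reads was lost with the deposited values. The other lower regions were an exon of Mmp14 (16 and 2 reads, -2.02, interval -5.47 to -0.21), Adamts3 (12 and 0, at least 2.46-fold lower), Adamts20 (17 and 3, -1.62, interval -4.22 to -0.01) and Adamts15 (8 and 0 reads). Against the floor of 3 reads Adamts15 was at least 1.64-fold lower and the Mmp16 region with 9 and 0 at least 1.85-fold lower, and neither bound reaches 2-fold. All 13 called regions had a peak in 1 library only, as did 194 of the 198 members and 98.9% of all called NFATC2 regions, and 10 of the 198 members had 20 reads or more.

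H3K9lc at these genes moved about as often up as down with HK1 knockdown. Of 177 members 8 were lower (4.52%) and 9 higher (5.08%), where all H3K9lc regions gave 3.33% and 3.47%. The deposited values gave 11 lower (6.21%) and 3 higher (1.69%), which moved the lower share of calls from 47.1% to 78.6%. All H3K9lc regions moved the same way, to 5.24% and 1.99%. The median log2 ratio was -0.05 for members and -0.08 for all regions. Of the 9 promoter regions none was called, where all H3K9lc promoter regions gave 3.45% lower and 3.94% higher. All 17 called regions had a peak in 1 library only, as did 97.2% of all called H3K9lc regions.

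The lower H3K9lc regions were mostly read more deeply than the higher ones, which is not particular to these genes. Of all H3K9lc regions, the lowest of 5 groups by level held 554 lower and 812 higher, and the top group 101 and 66. TGF held 1.76 times the reads of siHK1, so with 0 reads in the other library a lower call needed more reads than a higher one. Adamts17, a protease of the microfibril group, had 32 reads in TGF and 3 in siHK1 in its intron (-2.40, interval -4.95 to -0.93). Adamts9 had 53 and 10 reads at a region 4280 bp from its start site and within another gene (-1.54, interval -2.73 to -0.60). Mmp13 had 31 and 6 reads 3866 bp upstream (-1.47), while its neighbouring region 4691 bp upstream had 38 and 26 (0.27). Mmp16 had 3 lower regions, with 29 and 5, 23 and 4, and 16 and 2 reads, and 3 higher, with 4 and 9, 1 and 6, and 0 and 4. Those with 29 and 23 reads in TGF lay 402156 bp upstream and 148954 bp downstream of the assigned start sites. The 43 Mmp16 regions had a median log2 ratio of -0.29 and were spread over both flanks of the gene. Adamts6 and Mmp1b had 1 lower region each. The higher region with most reads was upstream of Adamts3, with 9 and 14 reads (1.42). With the deposited values this call and those of Mmp16 with 4 and 9 and with 0 and 4 reads were lost. The most strongly read H3K9lc regions of the group, at Mmp21 with 179 and 110 and with 122 and 86 reads, were not called.

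**Figure D4:**
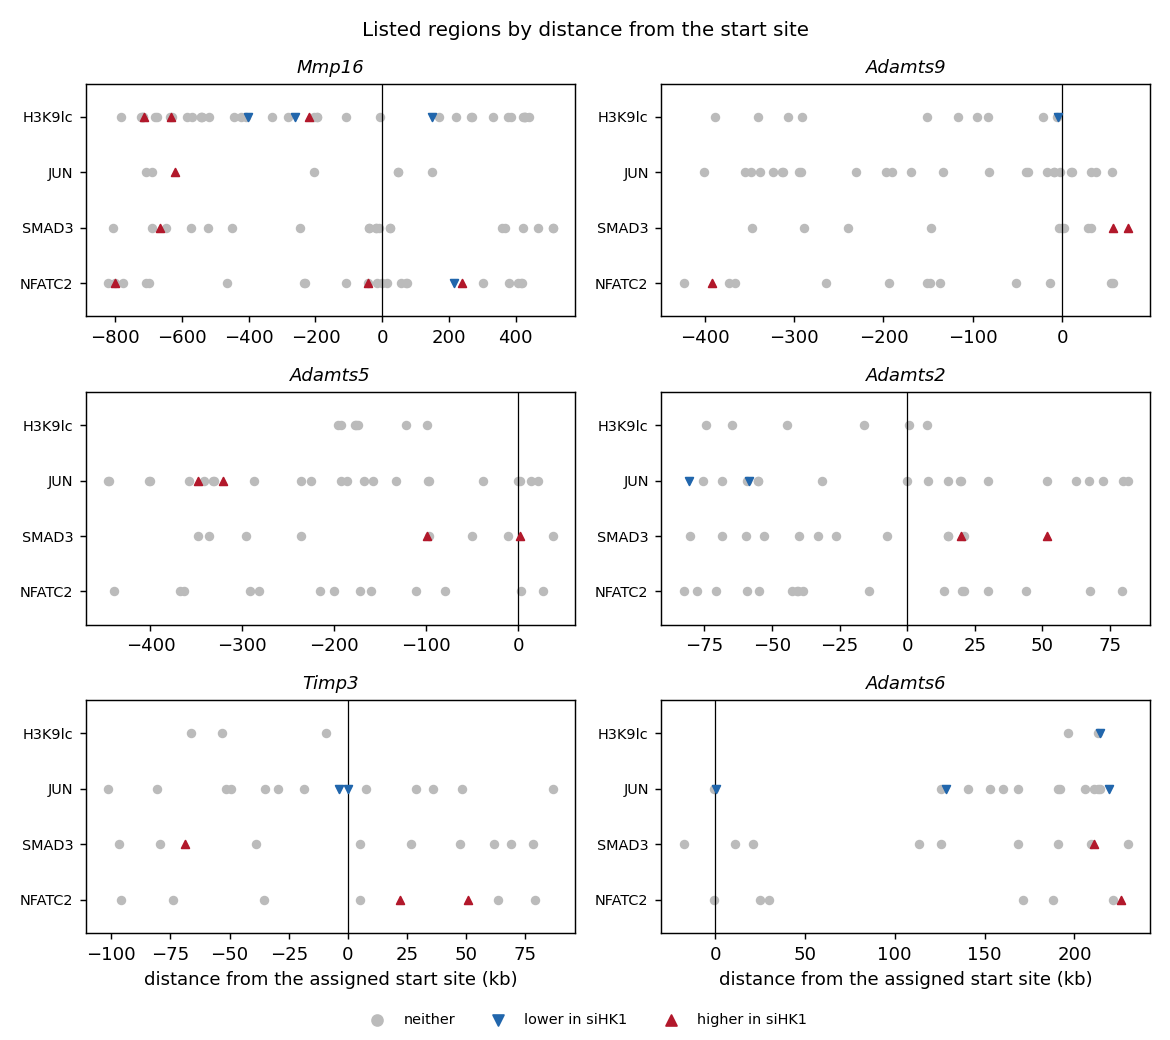
Distance of each listed region from the assigned start site in kb (x axis, 0 at the vertical line) for 6 genes, with 1 row for each antibody. Grey circles were not called, blue triangles pointing down were lower and red triangles pointing up were higher in siHK1. H3K9lc regions of Mmp16 lie on both sides of the gene, and the lower JUN regions of Timp3 lie at and just upstream of the start site.

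Without TGF-β the mark was read too thinly at these genes for most comparisons. The NC library had 0 reads at 67 of the 154 member regions in its table and a median of 1, against 16 in TGF. TGF held 2313288 reads in listed regions and NC 115572, so the call rule was uneven. Adamts10 was called lower with 2 reads in NC and 1 in TGF, and Mmp9 with 0 and 15 was not called. Of all regions, the top of 5 groups by level held 434 lower and 216 higher, and the next 1158 and 0. The balance of lower and higher calls is therefore not a result about the direction of the mark. Of the 154 members, 6 were lower in TGF (3.90%) and 0 higher, where all regions gave 2.42% lower and 0.328% higher. The deposited values turned this to 1 lower (0.649%) and 5 higher (3.25%), and the median log2 ratio from -0.29 to 0.78. All regions turned with them, to 0.604% lower, 4.71% higher and a median of 1.01. Of the 6 lower regions 5 had 2 or 3 reads in NC and 1 to 3 in TGF, at Adamts8, Adamts10, Adamts17, Mmp17 and Timp3, and the sixth, 176768 bp upstream of Adamts5, had 5 in NC and 28 in TGF (-1.95). The TGF library in this table is also the TGF library of the H3K9lc comparison with siHK1, so the ratios of both share it. A region upstream of Adamts5 with 3 and 111 reads was not called (0.67, interval -0.70 to 3.19), and was higher with the deposited values (1.42).

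Overlaps of member regions between antibodies were set beside those of all regions. Of the JUN members 47 of 270 (17.4%) overlapped a SMAD3 region by at least 1 bp, against 18.1% of all JUN regions, and 49 of 171 SMAD3 members (28.7%) overlapped a JUN region, against 23%. For JUN and NFATC2 the shares were 13.3% of JUN members against 15.4%, and 18.7% of NFATC2 members against 16.7%. Of the H3K9lc members 14 overlapped a JUN region (7.91% against 5.92%), and of the JUN members 14 overlapped an H3K9lc region (5.19% against 6.07%). H3K9lc members overlapped SMAD3 regions at 5.08% against 6.50%, and NFATC2 regions at 3.95% against 6.58%. From the other side SMAD3 members overlapped H3K9lc regions at 5.26% against 8.36%, and NFATC2 members at 3.54% against 7.24%. Regions of all 4 antibodies met at 3 places, 1.69% of H3K9lc members against 2.18% of all H3K9lc regions. They were the Adamts12 promoter (chr15:11063699-11064064), Mmp21 (chr7:133685560-133686073) and Adamts7 (chr9:90201302-90201563). At the Adamts12 promoter JUN had 105 and 48 reads (-0.23), SMAD3 26 and 20 (0.12), NFATC2 10 and 10 (0.70) and H3K9lc 13 and 9 (0.30), and none was called. At Mmp21 JUN was lower with 26 and 5 reads (-1.38, interval -3.22 to -0.08), while SMAD3 with 23 and 7 (-1.15, interval -2.69 to 0.05), NFATC2 with 16 and 10 (0.05) and H3K9lc with 122 and 86 (0.31) were not called. With the deposited values that SMAD3 region was lower as well (-1.26). At Adamts7 none was called, with 128 and 74 reads for JUN (0.11), 5 and 8 for SMAD3 (1.12, interval -0.62 to 3.13), 4 and 6 for NFATC2 (1.23, interval -0.79 to 3.55) and 6 and 2 for H3K9lc (-0.57, interval -4.11 to 1.71). Lower calls of different antibodies coincided at the Adamts3 upstream region for JUN and NFATC2 and at the Adamts20 repeat printed above for SMAD3 and NFATC2. How often lower calls coincided over all regions was not counted.

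A list of 22 genes that act beside these proteases took in ADAM proteases, ADAMTS-like proteins, plasminogen activation and the clearance receptor Lrp1. At these genes SMAD3 gave more higher than lower calls with equal totals. SMAD3 had 92 regions, 3 lower (3.26%) and 19 higher (20.7%), against 4.59% and 7.44% of all SMAD3 regions. The counts of this list were not redone with the deposited values, where all SMAD3 regions gave 5.49% lower and 3.86% higher. Of the 19, 6 were at Adam12 and 5 at Lrp1, which takes up TIMP and protease complexes. JUN had 169 regions at these genes, 9 lower and 5 higher (5.33% and 2.96%), and NFATC2 122 with 2 lower and 7 higher (1.64% and 5.74%). These lie near the 5.56% and 4.0% of all JUN regions and the 2.06% and 4.79% of all NFATC2 regions. H3K9lc had 31 regions at 9 of the 22 genes, and none was called in either direction, where 3.33% and 3.47% of all H3K9lc regions were.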

How the data were processed

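CUT&Tag-seq of primary mouse cardiac fibroblasts was prepared with a Vazyme CUT&Tag kit, per the labels. The study's methods name Bowtie2, MACS2, GRCm39 and spike-in DNA, whereas the submitters' processing notes name BWA 0.7.12 and mm10. Of 104 member transcripts in the tables, 103 had the same coordinates in GENCODE vM21, so coordinates are given on GRCm38, counted from 1. The deposited tables hold raw read counts per region and library, a 0 or 1 peak mark, and normalised log2 values that the authors made for each library. The authors' own comparisons (a difference, p-values and a call of direction) were deposited too and were not used. Of 10 libraries 9 were used. The library titled TGF has no antibody in its labels and was left out, and its table also has 1 column of no sample.

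Counts were used as deposited and scaled to equal totals over the regions of a table, with 0.5 reads added for log2 ratios. Exact (Clopper-Pearson) 95% intervals were taken from the reads in each pair of libraries with scipy 1.17.1, in Python 3.11.15 with pandas 2.3.3 and numpy 2.4.6. A call needed 2-fold and an interval without equality, and folds printed for 0 reads are bounds against a floor of 3 reads. With 1 library per condition no test was made. The calculation was tested on simulated data. The summed counts are those of listed regions, so the depth of each library is unknown. Sequences were read from the GRCm38 genome and from RefSeq promoter windows of GRCm38.p6, and motifs were searched as exact letters on both strands. Regions named are, in each table, the highest region of 15 listed genes, the 5 largest changes in each direction among regions above the table's median level, and the 3 genes with most regions. Other regions in the text were chosen after their values were seen. The members and gene lists were chosen with earlier results of these data known. Alternatives were the deposited log2 values, a pseudocount of 1, 2-fold alone, regions above the median level, regions within 100 kb and promoters within 1 kb. Scaling without the highest 0.1% of regions was added after seeing the data.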

Additional observations from a re-analysis of the deposited data

Results flagged for a closer look

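At 2 places regions of different antibodies overlapped and were called in opposite directions in siHK1 against TGF. Downstream of the stromelysin gene Mmp10 (chr9:7519384-7519594) H3K9lc was higher, with 2 reads in TGF and 9 in siHK1 (log2 ratio 2.74, interval 0.71 to 6.23), while the overlapping SMAD3 region was lower, with 17 and 3 reads (-1.83, interval -4.42 to -0.22). In the Syn1 intron beside Timp1, JUN was lower, with 13 and 0 reads (-3.86, on the scale with 0.5 reads added, and at least 2.33-fold lower against a floor of 3 reads), while SMAD3 was higher over 38 shared bases, with 2 and 11 reads (2.70, interval 0.76 to 6.17). Each value rests on 1 library per condition, and the differences between antibodies were not tested. How often overlapping regions were called in opposite directions over all regions was not counted, so these places cannot be called unusual.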

How the results depend on the processing

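No paired analysis was possible because no antibody has more than 1 library of a condition, which also leaves no replicate to leave out. Counts of lower and higher member regions moved with the call rule and with the set of regions kept. With 2-fold alone H3K9lc had 25 lower and 27 higher, JUN 31 and 12, SMAD3 47 and 67, NFATC2 50 and 86, and TGF against NC 44 and 20. With the deposited log2 values the counts that moved by over 1.5 times were 3 higher for H3K9lc, 5 lower and 9 higher for SMAD3, 5 higher for NFATC2, and 1 lower and 5 higher for TGF against NC. Above the table's median level lay 86 of 177 H3K9lc and 160 of 270 JUN members. Of those, 5 H3K9lc regions were lower and 1 higher, and 6 JUN regions were lower and 3 higher. The JUN median log2 ratio went from -0.09 to 0.038. Keeping regions within 100 kb left out 74 H3K9lc, 71 JUN and 54 NFATC2 members. Within 100 kb there were 4 lower and 5 higher for H3K9lc, 2 higher for JUN, and 3 lower and 3 higher for NFATC2. The median log2 ratio of TGF against NC was -0.29 and became 0.78 with the deposited values, -0.84 with a pseudocount of 1 and -0.61 without the highest 0.1% of regions. Promoter shares within 1 kb were 1.13% for H3K9lc, 11.9% for JUN, 4.55% for NFATC2 and 1.30% for TGF against NC. What caused the shifts was not tested. With the deposited values 10 of the 91 named values changed their call and 7 crossed 2-fold, all 7 of them and 5 of the 10 for TGF against NC. With a pseudocount of 1 no named value crossed 2-fold, and 3 that were not called changed sign. SMAD3, NFATC2 and NC values rest on few reads, with medians of 1 to 3 a region.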
